A study of Mus musculus with 23 samples.

Results

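The 8 genes described here encode the enzymes that make serine from a glycolytic intermediate and pass its carbon into the mitochondrial folate pathway. They were chosen by gene name, as Phgdh, Psat1, Psph, Shmt1, Shmt2, Mthfd2, Mthfd1l and Aldh1l2, and are 8 of 38924 gene IDs in the files. Phgdh, Psat1 and Psph act in turn on 3-phosphoglycerate to give serine. The serine hydroxymethyltransferases, cytosolic Shmt1 and mitochondrial Shmt2, split serine into glycine and a one-carbon unit carried on tetrahydrofolate. In mitochondria Mthfd2 oxidises that unit, Mthfd1l releases it as formate for nucleotide synthesis, and Aldh1l2 oxidises it to carbon dioxide while making NADPH. In the central nervous system Phgdh is known as a gene of astrocytes more than of neurons, and several of these genes are targets of ATF4, a transcription factor of the amino acid and stress response. Glycine, a product of the pathway, is the substrate of the Gars enzyme.

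Transcripts bound to tagged ribosomes were sequenced from whole spinal cords of mice aged 2 weeks, before disease onset according to the series title, in the RiboTag design, in which Cre recombinase switches on a haemagglutinin-tagged Rpl22 and an anti-haemagglutinin antibody precipitates the ribosomes. Every mouse carried the tagged allele in 1 copy (Rpl+/-) on a B6.CgxB6.129 background. The 6 mutant Cre libraries came from mice that also carried ChAT-Cre (Chat+/-) and the C201R allele of the glycyl-tRNA synthetase gene (GarsC201R/+), and the 5 wild-type Cre libraries from mice with ChAT-Cre and Gars+/+. The 6 mutant no-Cre and 6 wild-type no-Cre libraries came from mice of each Gars genotype with no Cre (Chat+/+), in which the tag should not be made and the precipitate is background. ChAT-Cre drives recombination in cholinergic cells, of which motor neurons are one kind, so the precipitate is not of motor neurons alone.

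Levels are given as counts-per-million (CPM), with library sizes scaled by TMM factors. Total expected counts ran from 11696397 to 14511394 in mutant Cre, 9031654 to 13636772 in wild-type Cre, 12042625 to 19671869 in mutant no-Cre and 12538407 to 18806506 in wild-type no-Cre libraries. Ribosomal and ribosomal-like RNA took 53.0 to 75.3% of them in mutant Cre, 50.6 to 89.0% in wild-type Cre, 65.8 to 95.6% in mutant no-Cre and 55.5 to 88.5% in wild-type no-Cre libraries, so the depth behind a gene differed between libraries by more than the totals show. Chat, the gene that drives Cre, averaged 33.7 ± 13.7 CPM in mutant Cre and 56.1 ± 11.8 CPM in wild-type Cre libraries, a log2 difference of -0.75 (adjusted p = 0.220). The 10 motor neuron and cholinergic markers in the files summed to 173 to 558 CPM in mutant Cre libraries and to 484 to 673 CPM in those of wild-type mice with Cre, against 33.1 to 54.6 CPM in mutant no-Cre and 30.6 to 88.5 CPM in wild-type no-Cre libraries. Among them, Lhx3 was at 0 in every mutant no-Cre library. Oligodendrocyte markers were also present with Cre, at 811 to 7224 CPM in mutant Cre libraries, against 553 to 3062 CPM in their wild-type counterparts. The highest were mutant replicates 4 and 6, which are the only Cre libraries whose titles start with 18405, at 5256 and 7224 CPM, and wild-type replicate 2, at 3062 CPM. Gars itself averaged 70.0 ± 21.4 CPM in mutant Cre and 57.8 ± 10.5 CPM in wild-type Cre libraries (SD, n = 6 and 5), a log2 difference of 0.26 with an adjusted p of 0.532 in edgeR's quasi-likelihood test with Benjamini-Hochberg adjustment. A gene level of this kind does not test for a point mutation and so does not check the genotype labels.

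With Cre, transcripts of the last 2 steps of serine synthesis and of Shmt2 were higher in mutant than in wild-type precipitates. Of the 8 genes, 7 had enough counts to be tested, and Psph, Psat1 and Shmt2 rose. All 7 fold changes were positive, with a median of 1.72 on the log2 scale, against a median of 0.06 over the 12399 genes tested. The count of 3 called genes stands beside a background of 0.234% of all tested genes called higher. Calls used an adjusted p under 0.05, and values below are mutant minus wild type on the log2 scale with edgeR's quasi-likelihood test and Benjamini-Hochberg adjustment over all genes tested. In this bulk precipitate, more tagged cells of a kind and more RNA per cell cannot be told apart. Gene positions are those of GENCODE M21 on GRCm38, matched by identifier.

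Phgdh (ENSMUSG00000053398, chromosome 3, 98313170 to 98339990), the first and committing step, overlapped between genotypes. In mutant Cre libraries its lowest, median and highest levels were 4.38, 9.27 and 21.9 CPM, against 4.95, 4.08, 0.331, 0.377 and 1.48 CPM in the 5 wild-type Cre libraries. One wild-type library stood above the lowest mutant library. Phgdh differed by 2.39 (SE 0.62, adjusted p = 0.106) and was not called by edgeR. DESeq2 (adjusted p = 0.0407) and limma-voom (adjusted p = 0.0148) called it, beside 0.984% and 2.11% of all genes called higher. The 2 highest mutant values, 14.8 and 21.9 CPM, were in replicates 4 and 6, which were also highest in oligodendrocyte markers and in astrocyte markers (916 and 1139 CPM summed over 13 of 13 genes). The other 4 mutant Cre libraries ran from 4.38 to 9.37 CPM in Phgdh.

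Psat1 (ENSMUSG00000024640, chromosome 19, 15904678 to 15947337), the aminotransferase of the second step, was the most abundant of the 8 genes per length in every group. It stood at 36.3, 52.7 and 58.1 CPM (lowest, median and highest) in mutant Cre libraries, against 16.1, 17.9, 10.7, 6.34 and 12.4 CPM in wild-type Cre libraries. The lowest mutant value exceeded the highest wild-type value, and Psat1 rose by 1.98 (SE 0.25, adjusted p = 0.0027), a fold of 3.95. Only 3 of the 12399 genes had a smaller p.

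Psph (ENSMUSG00000029446, chromosome 5, 129765558 to 129787449), the phosphatase that releases serine, had the largest fold change of the set. Mutant Cre libraries held 8.92, 10.8 and 15.2 CPM (lowest, median and highest), against 2.58, 1.75, 1.98, 0.604 and 1.48 CPM in wild-type Cre libraries. No mutant value came near the wild-type range, and Psph rose by 2.82 (SE 0.30, adjusted p = 0.000804), a fold of 7.08. It ranked 2 by p among all genes tested. Psph shares 10.4% of its annotated exon bases with Cct6a on the opposite strand, and the strandedness of the libraries is not given in the sources used here. Its expected counts were whole in every library, so they show no sign that Psph reads were shared with another gene. Whether all reads of those bases came from Psph was not tested.

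Shmt2 (ENSMUSG00000025403, chromosome 10, 127517123 to 127522444), the mitochondrial hydroxymethyltransferase, was at 10.2, 11.6 and 17.2 CPM (lowest, median and highest) in mutant Cre libraries, against 3.57, 3.55, 5.04, 5.13 and 6.82 CPM in wild-type Cre libraries. The groups did not overlap, and Shmt2 rose by 1.41 (SE 0.23, adjusted p = 0.0148). Without wild-type Cre replicate 1 or 3 its adjusted p was 0.0512 or 0.0619, and with the title number as a block it was 0.132, within a range of 1.09e-05 to 0.476 over the 24 alternatives. Its cytosolic counterpart Shmt1 (ENSMUSG00000020534, chromosome 11, 60788104 to 60811718) was near the limit of counting, with 51 counts over the 6 mutant Cre libraries and 6 counts over the 5 wild-type Cre libraries, and it did not pass the count filter in that comparison. By library Shmt1 was at 0.0942, 0.368 and 0.785 CPM (lowest, median and highest) in mutant Cre, against 0, 0.219, 0.0827, 0 and 0 CPM in wild-type Cre libraries.

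Of the 3 enzymes that handle the mitochondrial one-carbon unit, edgeR called none with Cre. DESeq2 called Mthfd2 (adjusted p = 0.021) and Aldh1l2 (adjusted p = 0.00101), with 0.984% of all genes called higher, and limma-voom also called both (adjusted p = 0.0228 and 0.0146), with 2.11% called higher. Mthfd2 (ENSMUSG00000005667, chromosome 6, 83305691 to 83325908), the dehydrogenase and cyclohydrolase, was at 3.95, 13.7 and 15.1 CPM (lowest, median and highest) in mutant Cre libraries, against 3.77, 4.51, 5.46, 7.10 and 4.88 CPM in wild-type Cre libraries. The lowest mutant library was replicate 6, inside the wild-type range, and the others ran from 8.20 CPM up, above every wild-type library. Mthfd2 differed by 1.15 (SE 0.31, adjusted p = 0.110). Without mutant replicate 6 the difference was 1.32 and passed the threshold (adjusted p = 0.0146, with 0.00234 to 0.540 over all 24 alternatives). Mthfd2 alone of the set lies on the chromosome of Gars, 28.2 Mb from it. Whether sequence linked to the C201R allele affects its level was not tested.

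Mthfd1l (ENSMUSG00000040675, chromosome 10, 3973118 to 4167081), the formate-releasing synthetase, overlapped between genotypes. It was at 3.26, 8.63 and 10.5 CPM (lowest, median and highest) in mutant Cre libraries, against 6.94, 5.17, 9.51, 6.95 and 2.73 CPM in wild-type Cre libraries, a difference of 0.36 (SE 0.32, adjusted p = 0.567). Aldh1l2 (ENSMUSG00000020256, chromosome 10, 83487450 to 83534140), the formyltetrahydrofolate dehydrogenase, did not overlap. It was at 3.44, 4.45 and 6.18 CPM in mutant Cre libraries, against 0.595, 2.89, 0.992, 1.21 and 1.02 CPM in wild-type Cre libraries, a difference of 1.72 (SE 0.35) that narrowly missed the threshold (adjusted p = 0.0565). Wild-type replicate 2, the wild-type library rich in glial markers, was the highest of its group. Without it Aldh1l2 (adjusted p = 0.00401) and Phgdh (2.88, adjusted p = 0.0279) passed the threshold, so that 5 of the 7 tested genes were called. In that fit 3.38% of all genes were called higher, so the background rose as well. Over the 24 alternatives adjusted p ran from 0.00101 to 0.377 for Aldh1l2 and from 0.0148 to 0.379 for Phgdh. Aldh1l2 shares 14.1% of its exon bases with D10Wsu102e on the opposite strand. Its expected counts were not whole in 11 libraries, a sign of reads shared with other genes, and which genes share them was not tested.

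**Figure D1:**
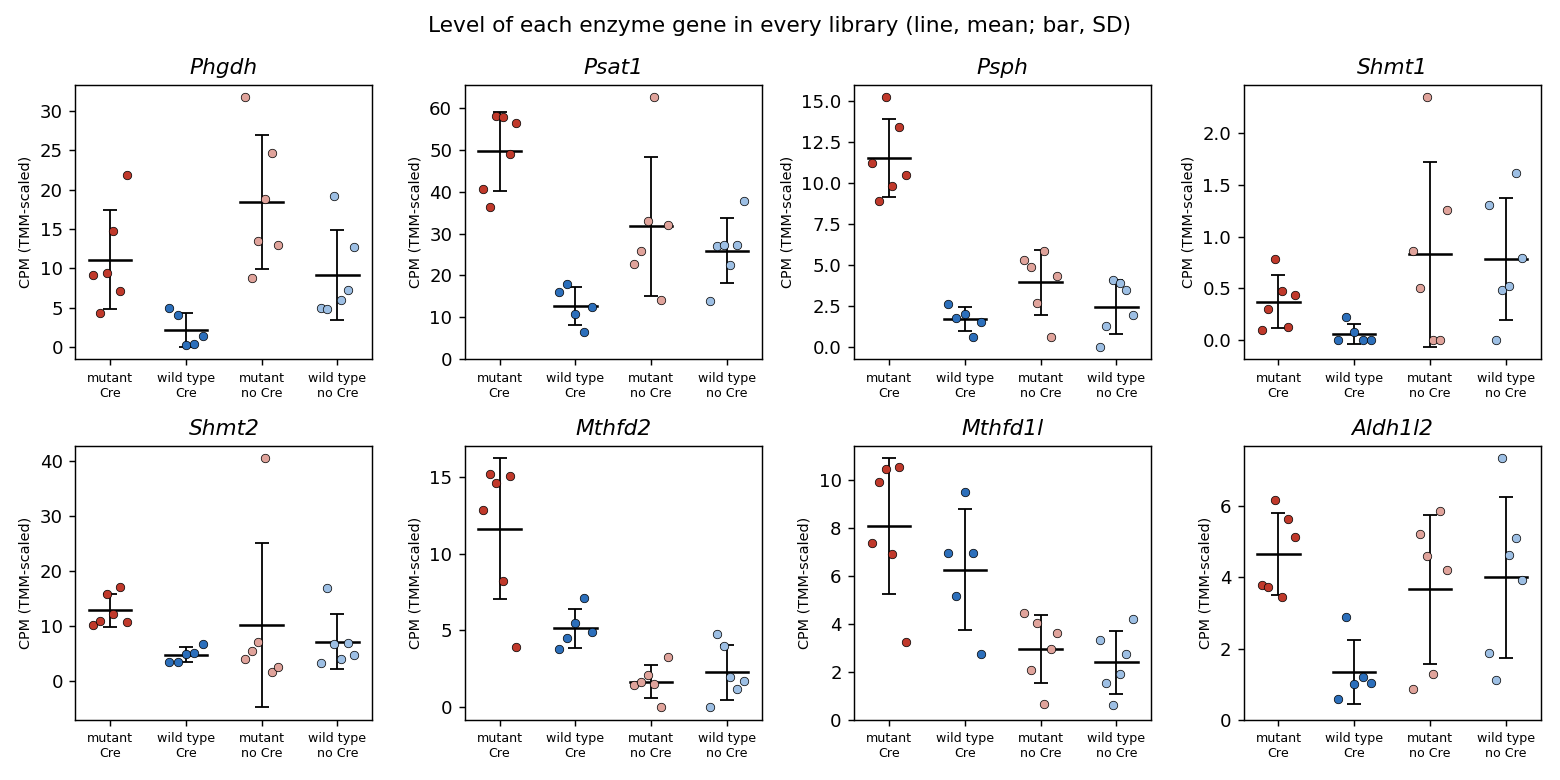
Level of each gene in every library, in TMM-scaled CPM (vertical axis), with mutant Cre, wild-type Cre, mutant no-Cre and wild-type no-Cre libraries from left to right. Points are libraries, horizontal lines are means and bars are SD. In Psat1, Psph, Shmt2 and Aldh1l2 every mutant Cre point lies above every wild-type Cre point.

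In 4 of the 7 tested genes, Psat1, Psph, Shmt2 and Aldh1l2, every mutant Cre library stood above every wild-type Cre library, against a background of 1.09% of all tested genes. The leading numbers of the sample titles, whose meaning the labels do not give, allow the genotypes to be set side by side within 20302 and within 20401, with 2 libraries of each genotype in both. On the log2(CPM + 1) scale Psph differed by 2.02 and 2.29 within these numbers, Psat1 by 1.66 and 1.60, Shmt2 by 0.75 and 1.94, Mthfd2 by 1.28 and 1.63, and Aldh1l2 by 1.24 and 1.47. Phgdh differed by 2.03 and 0.74, Mthfd1l by 0.61 and 0.72 and Shmt1 by 0.19 and 0.36. All 8 genes had a higher mutant mean within both numbers, but the share of all genes that did so was not counted. Each value rests on 2 libraries of each genotype, and those of Shmt1 on few counts. In the edgeR fit of these 8 libraries with the title number as a block, Psat1 and Psph (adjusted p = 0.00213 for both) and Mthfd2 (adjusted p = 0.00901) were called, beside 0.149% of all genes called higher there, and Shmt2 was not (1.48, adjusted p = 0.132). Within 20302 the mutant libraries had 0.0314 and 0.0329 CPM of the X-inactivation transcript Xist, against 14.9 and 18.2 CPM in the wild-type libraries, so sex and genotype cannot be told apart in that number. Number 18405 holds mutant Cre libraries only and 20304 a single wild-type Cre library, so neither gives a within-number value.

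Markers of glia had higher fitted values in mutant Cre precipitates, with no astrocyte or oligodendrocyte marker called by edgeR. Summed astrocyte markers ranged between 347 and 1139 CPM in mutant Cre libraries, against 348 to 704 CPM in the wild-type ones with Cre. Of the 13 astrocyte markers tested 12 were positive and 0 were called, with a median of 0.97, and of the 10 oligodendrocyte markers 10 were positive and 0 were called, with a median of 1.61. No marker of either list was at 0 in a group. With both libraries of number 18405 left out, those medians were -0.28 and -0.05. With the 3 Cre libraries richest in oligodendrocyte markers left out (wild-type replicate 2 and mutant replicates 4 and 6), they were 0.27 and 0.90. There 3 of 13 astrocyte markers were called higher and 1 lower, and 3 of 9 tested oligodendrocyte markers were called higher. Far more genes of any kind were called in that fit than in the main fit, so these counts are not a result about the markers. Of other cells, 4 of 4 tested microglial markers (median 2.40) and 7 of 7 endothelial and pericyte markers (median 1.65) were positive with 0 called. In the same fit without 18405, Phgdh differed by 1.79 (adjusted p = 0.214) and Mthfd2 by 1.44 (adjusted p = 0.00446). Psph and Psat1 were called without 18405 and under each of the 12 other settings tried. With glial marker content as a covariate, Phgdh differed by 1.91 (adjusted p = 0.149) and Mthfd2 by 1.41 (adjusted p = 0.0058).

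**Figure D2:**
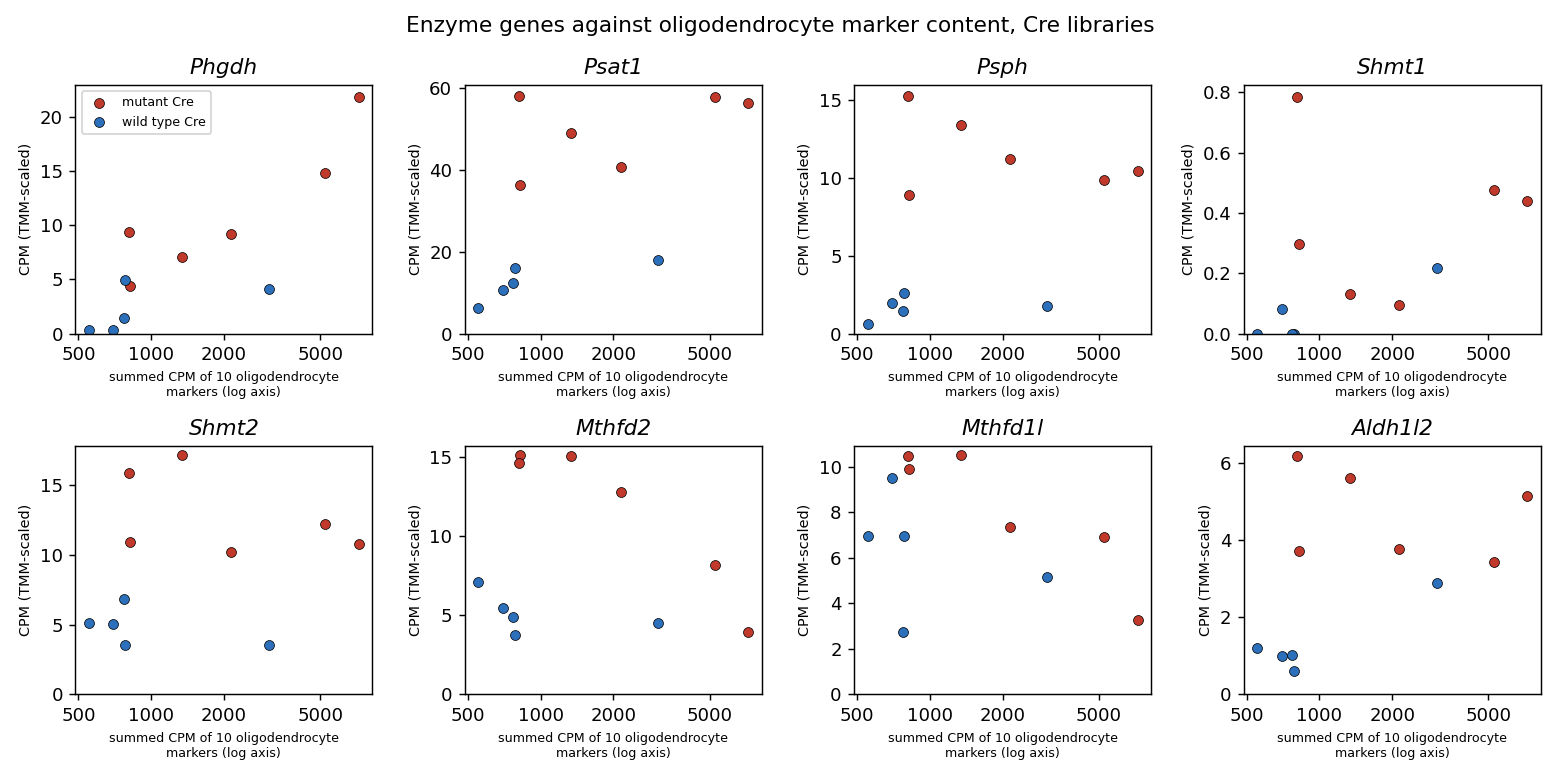
Level of each gene in TMM-scaled CPM (vertical axis) against the summed CPM of 10 oligodendrocyte markers (horizontal log axis) in the 6 mutant Cre and 5 wild-type Cre libraries. The 2 mutant libraries at the far right, at 5256 and 7224 CPM of markers, are highest in Phgdh and, among mutant libraries, lowest in Mthfd1l and Mthfd2, while in Psph every mutant point lies above every wild-type point.

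Promoter sequence is shown for Psat1 and Shmt2, which were both called higher in mutants with Cre, and for Mthfd2, which was called under several of the alternative settings. The Psph window begins inside an annotated exon and is not printed. RefSeq promoter windows on GRCm38.p6, from 250 bases before to 50 after the RefSeq start, were found for 7 of the 8 genes, in 8 windows. The RefSeq starts of Psat1 (15925059) and Mthfd2 (83317604) lie inside the GENCODE gene spans given above. Their printed stretches are thus upstream of the RefSeq start and not of the GENCODE gene start. Only the stretch of a window before the first annotated exon base within it is printed. It runs 5′ to 3′ on the gene's own strand, with each CCAAT on either strand in capitals. The Psat1 stretch is chr19:15925060-15925309 on the minus strand, the Shmt2 stretch chr10:127522445-127522694 on the minus strand and the Mthfd2 stretch chr6:83317607-83317854 on the minus strand.
Psat1: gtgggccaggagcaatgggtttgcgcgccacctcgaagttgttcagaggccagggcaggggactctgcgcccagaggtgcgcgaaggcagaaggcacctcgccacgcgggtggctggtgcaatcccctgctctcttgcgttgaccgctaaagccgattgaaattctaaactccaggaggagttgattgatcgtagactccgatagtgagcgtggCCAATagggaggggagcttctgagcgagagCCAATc
Shmt2: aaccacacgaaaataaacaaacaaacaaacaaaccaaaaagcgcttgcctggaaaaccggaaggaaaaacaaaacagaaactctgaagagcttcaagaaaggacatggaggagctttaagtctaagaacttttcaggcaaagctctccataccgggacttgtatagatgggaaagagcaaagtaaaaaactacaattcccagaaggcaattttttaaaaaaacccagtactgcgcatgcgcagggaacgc
Mthfd2: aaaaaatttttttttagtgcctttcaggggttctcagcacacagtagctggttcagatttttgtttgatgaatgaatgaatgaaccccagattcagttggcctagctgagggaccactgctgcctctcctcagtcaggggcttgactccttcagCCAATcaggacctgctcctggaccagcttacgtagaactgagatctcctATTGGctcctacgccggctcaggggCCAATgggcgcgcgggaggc
The letters TGATGNAA, the core of the C/EBP-ATF response element, and the E-box CACGTG were searched on both strands, and neither was found in any of the 8 windows. Of all 32851 promoters of the table, 3.97% held TGATGNAA and 7.15% held CACGTG. The common promoter element CCAAT, added to the search after the first 2 motifs, was in a window of Phgdh, Psat1, Psph, Mthfd2 and Shmt1 and in 37.4% of all promoters. It was not found in the Shmt2 or Mthfd1l window. The Psat1 window shown has 20 CpG, the Mthfd2 window 15 and the Shmt2 window 13, against a median of 7 over all promoters.

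Without Cre, no gene of the set differed by genotype past the threshold. Of the 8 genes, all tested in that comparison, 0 were called by edgeR, with a background of 0% of 12588 genes called in either direction, and 1 had an unadjusted p under 0.05. DESeq2 and limma-voom also called 0 of the 8. Phgdh ran from 8.79 through a median of 16.1 to 31.7 CPM in mutant no-Cre and from 4.88 through 6.63 to 19.2 CPM in wild-type no-Cre libraries, a difference of 0.99 (SE 0.40, adjusted p = 0.951) and the one with the unadjusted p of 0.0218. The ranges overlapped. Psat1 was at 14.1, 28.8 and 62.7 CPM (lowest, median and highest) in mutant no-Cre and 13.8, 27.1 and 37.9 CPM in wild-type no-Cre libraries, a difference of 0.28 (SE 0.32). Psph was at 0.587, 4.59 and 5.82 CPM in mutant no-Cre and 0, 2.69 and 4.10 CPM in wild-type no-Cre libraries, a difference of 0.69 (SE 0.66). The other 5 genes ran from -0.36 for Mthfd2 to 0.50 for Shmt2, and over all 8 the median was 0.29 against -0.02 for all genes.

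The test of whether the genotype effect differed between precipitates with and without Cre called 0 of the 8 genes with edgeR, where the background was 0.0207% of 14468 genes. Psat1 had the smallest p of the set, with a difference of the 2 genotype effects of 1.68 (SE 0.43, unadjusted p = 0.000491, adjusted p = 0.321). Psph differed by 2.10 (SE 0.72, adjusted p = 0.348) and Aldh1l2 by 1.87 (SE 0.69, adjusted p = 0.361), and these 3 were the genes with an unadjusted p under 0.05. DESeq2 called 0 of the 8 and limma-voom called those 3, with adjusted p of 0.00471 for Psat1, 0.0267 for Psph and 0.0387 for Aldh1l2, beside 1.17% of all genes called, and no other alternative of 35 called a gene of the set. Mthfd1l had the smallest difference, 0.06 (SE 0.62). A larger genotype effect with Cre was thus called for Psat1, Psph and Aldh1l2 by one tool of the 3 and for Shmt2 by none.

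**Figure D3:**
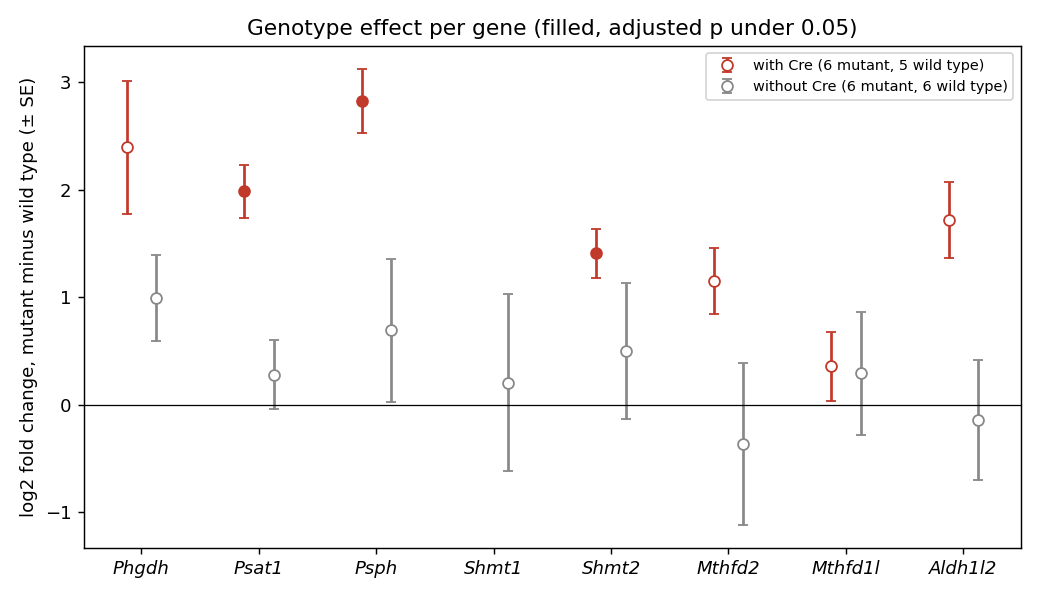
Log2 fold change of mutant minus wild type (vertical axis, bars are SE) for each gene, with Cre (6 mutant and 5 wild-type libraries) and without Cre (6 and 6). Filled points have an adjusted p under 0.05 in edgeR. The filled points are Psat1, Psph and Shmt2 with Cre, and Shmt1 has no point with Cre because it did not pass the count filter.

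Precipitates with Cre were also set against the background precipitate of the same genotype. In mutants, Mthfd2, Psph and Mthfd1l were higher with Cre, 3 of 7 tested genes against a background of 14.1% of genes called higher. Mthfd2 averaged 11.6 ± 4.58 CPM in mutant Cre and 1.67 ± 1.07 CPM in mutant no-Cre libraries (SD, n = 6 each), a rise of 2.59 (SE 0.43, adjusted p = 0.000315, edgeR with Benjamini-Hochberg adjustment). Psph averaged 11.5 ± 2.37 CPM in mutant Cre and 3.92 ± 1.96 CPM in mutant no-Cre libraries, a rise of 1.44 (SE 0.34, adjusted p = 0.00395), and Mthfd1l 8.07 ± 2.84 CPM with Cre and 2.96 ± 1.41 CPM without, a rise of 1.37 (SE 0.40, adjusted p = 0.0146). Phgdh averaged 11.1 ± 6.29 CPM in mutant Cre and 18.4 ± 8.50 CPM in mutant no-Cre libraries and Psat1 49.7 ± 9.41 CPM with Cre and 31.7 ± 16.7 CPM without, with neither called (adjusted p = 0.134 for both). Phgdh was called lower without the 18405 libraries (-1.34, adjusted p = 0.0094) and without the 3 Cre libraries richest in oligodendrocyte markers (-1.16, adjusted p = 0.0224), within 0.0094 to 0.994 over the 25 alternatives. Without mutant no-Cre replicate 4, whose Shmt2 level of 40.5 CPM stood far above its group, Shmt2 (1.64, adjusted p = 0.00137) and Psat1 (1.05, adjusted p = 0.0044) were called as well, where 19.3% of all genes were called higher. Over the 25 alternatives adjusted p ran from 0.00137 to 0.987 for Shmt2 and from 0.0015 to 0.268 for Psat1. In the comparison of all 12 libraries 6 of 13 astrocyte markers (median -1.46) and 4 of 10 oligodendrocyte markers (median -1.46) fell. With glial content as a covariate 0 of the 7 genes were called, with 1.58 for Mthfd2 (adjusted p = 0.0593), 1.23 for Psph (adjusted p = 0.0938) and 0.58 for Mthfd1l (adjusted p = 0.534). Fewer genes of any kind were called in that fit than without the covariate. Glial content also fell with Cre, and the cause of the lower count was not tested.

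In wild type, Mthfd1l was higher with Cre, 1 of 7 tested genes against a background of 20.0% called higher, and Phgdh, Psat1 and Aldh1l2 were lower, 3 of 7 against 25.9% called lower. Mthfd1l averaged 6.26 ± 2.51 CPM in wild-type Cre and 2.39 ± 1.31 CPM in wild-type no-Cre libraries (SD, n = 5 and 6), a rise of 1.46 (SE 0.48, adjusted p = 0.0199). Phgdh averaged 2.24 ± 2.15 CPM in wild-type Cre and 9.15 ± 5.69 CPM in wild-type no-Cre libraries and fell by 2.00 (SE 0.64, adjusted p = 0.0181). Psat1 averaged 12.7 ± 4.56 CPM in wild-type Cre and 25.9 ± 7.83 CPM in wild-type no-Cre libraries and fell by 0.96 (SE 0.30, adjusted p = 0.0161). Aldh1l2 averaged 1.34 ± 0.895 CPM with Cre and 4.00 ± 2.26 CPM without and fell by 1.47 (SE 0.56, adjusted p = 0.0404). Psph (1.68 ± 0.725 CPM in wild-type Cre and 2.43 ± 1.64 CPM in wild-type no-Cre libraries), Shmt2 and Mthfd2 were not called. In the same comparison 11 of 13 astrocyte markers (median -2.44) and 10 of 10 oligodendrocyte markers (median -2.92) fell. With glial content as a covariate 0 of the 7 genes were called, but very few genes of any kind were called in that fit. Because glial content fell with Cre, the fit separates the Cre effect from glial content poorly. The SE of Phgdh was 1.74 there, against 0.64 without the covariate. The calls also moved with the scaling and with single libraries. With library totals in place of TMM factors 0 of the 7 genes were called, and without wild-type Cre replicate 3 or 4 the count was 1 or 2. Shares over all genes are not given for those leave-outs, so their counts lack a background. The Cre comparisons of the genotypes use the same Cre libraries as the genotype comparison, so they are not separate evidence of it.

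Per kilobase of effective length, the order of the genes changed with genotype in the Cre precipitates. Effective length is an estimate that differed between libraries. For Psat1 it was 596 bases in wild-type Cre replicate 1 and 2239 bases in wild-type no-Cre replicate 1, and the values per kilobase move with it. In mutant Cre libraries Psat1 led with 39.7 ± 9.16 CPM per kilobase, apart from the rest, followed by Psph at 10.9 ± 2.24, Phgdh at 6.36 ± 3.60, Mthfd2 at 6.03 ± 2.34 and Shmt2 at 5.97 ± 1.37 CPM per kilobase, neighbours whose ranges overlapped. Mthfd1l at 2.34 ± 0.810, Aldh1l2 at 1.02 ± 0.238 and Shmt1 at 0.401 ± 0.504 CPM per kilobase came last. In wild-type Cre libraries Psat1 led with 14.0 ± 7.85 CPM per kilobase, and Mthfd2 at 3.60 ± 1.17, Shmt2 at 2.23 ± 0.623, Mthfd1l at 1.83 ± 0.741, Psph at 1.44 ± 0.751 and Phgdh at 1.28 ± 1.23 CPM per kilobase overlapped with their neighbours. Psph thus ranked 2 of 8 in mutant and 5 of 8 in wild-type Cre libraries. Without Cre, Psat1 ranked 1 and Phgdh 2 in both genotypes, at 27.6 and 10.7 CPM per kilobase in mutant and 18.7 and 5.26 CPM per kilobase in wild-type libraries.

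In 7 of the 8 lists of genes around the pathway edgeR called none with Cre, and the values in this and the next paragraph are edgeR's unless another tool is named. DESeq2 called 1 gene lower among serine and glycine makers and users, 1 glycolysis gene lower, and 1 purine gene higher and 2 lower. Limma-voom called 1 gene lower among makers and users, 4 glycolysis genes lower, 1 purine gene higher and 2 lower, and 1 sphingoid or phosphatidylserine gene higher. Neither tool called a folate or methionine-cycle gene. Of 8 tested genes that otherwise make or use serine and glycine, 0 were called, with a median of 0.22. Those with the smallest p were the serine dehydratase-like Sdsl (-1.42, adjusted p = 0.132), the transsulfuration enzymes Cth (2.59, adjusted p = 0.141) and Cbs (1.21, adjusted p = 0.422), and the serine racemase Srr (0.37, adjusted p = 0.505). Of 16 other folate genes tested 0 were called, with a median of 0.00, and the same-family enzymes Mthfd1 (-0.20), Mthfd2l (0.03) and Aldh1l1 (0.61) were not called. The genes of this list with the smallest p were the methionine synthase Mtr (-0.88), the thymidylate synthase Tyms (-1.14), the folate polyglutamating enzyme Fpgs (-1.18) and the purine enzyme Atic (-0.32), none called. Of 8 methionine-cycle genes 0 were called, with a median of 0.08. The 17 glycolysis genes, which act before or after 3-phosphoglycerate, also had 0 calls and a median of -0.23, with 4 positive. Pkm, the pyruvate kinase, acts after the point where serine synthesis branches off. It was at 242 CPM in mutant Cre and 415 CPM in wild-type Cre libraries (-0.79, adjusted p = 0.132). The 13 purine genes, of a pathway that takes up formate in only some of its steps, had 0 calls and a median of -0.32. Impdh1 (-1.06, adjusted p = 0.0854) and Adss (-0.59, adjusted p = 0.130), neither of which uses formate, had the smallest p. The 7 tested sphingoid and phosphatidylserine genes, users of serine, had 0 calls and a median of 0.40.

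Among carriers of serine and glycine, of 16 tested 14 were positive and edgeR called 0, with a median of 0.47. DESeq2 called 3 higher and limma-voom 4 higher, beside 0.984% and 2.11% of all genes called higher. Without the 3 Cre libraries richest in oligodendrocyte markers edgeR called 4 higher, in a fit that also called far more genes of any kind. Serinc3 was at 57.3 CPM in mutant Cre and 33.3 CPM in wild-type Cre libraries (0.78, adjusted p = 0.0899), and Slc1a4, a neutral amino acid carrier that moves serine, at 15.1 CPM in mutant Cre and 6.80 CPM in wild-type Cre libraries (1.12, adjusted p = 0.0916). Slc38a1 (0.52, adjusted p = 0.141) and the glycine transporter Slc6a9 (1.51, adjusted p = 0.146) followed. The one list of the 8 with edgeR calls was that of other ATF4 target genes, of which edgeR called 8 of 17 tested, 8 higher and 0 lower (12 with DESeq2 and 12 with limma-voom), with a median of 1.48. It was written with earlier results of these libraries known and is not independent evidence of its direction. Fgf21, a secreted hormone, averaged 11.5 ± 5.61 CPM in mutant Cre and 0.0558 ± 0.0785 CPM in wild-type Cre libraries (7.69, adjusted p = 5.68e-05), and Nupr1, a stress-response regulator, 3.65 ± 1.37 CPM in mutant Cre and 0.0589 ± 0.0954 CPM in wild-type Cre libraries (5.30, adjusted p = 0.00108). The proline-synthesis enzymes Aldh18a1 (1.48, adjusted p = 0.0129) and Pycr1 (2.23, adjusted p = 0.0193) rose with them. Asns, the asparagine synthetase, was at 35.3 CPM in mutant Cre and 31.3 CPM in wild-type Cre libraries (0.16, adjusted p = 0.706).

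**Figure D4:**
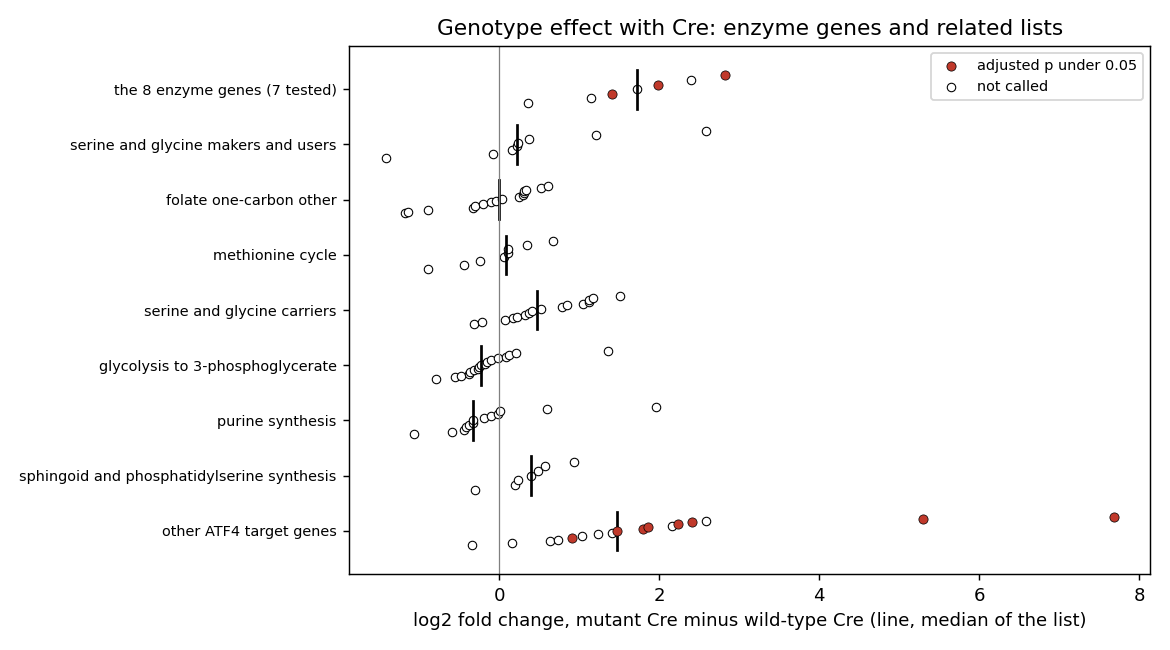
Log2 fold change of mutant Cre minus wild-type Cre (horizontal axis) for the 7 tested enzyme genes and for 8 lists of related genes (rows). Filled points have an adjusted p under 0.05 in edgeR, and vertical lines are list medians. Medians are 1.72 for the enzyme genes and 1.48 for other ATF4 targets, and 0.47 or lower in the other lists.

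The closest companions of each gene across the 11 Cre libraries were found as the smallest root-mean-square difference of centred log2(CPM + 1) values among 10964 genes, with no test. Psat1 and Psph were each other's nearest gene, at 0.309, followed for Psat1 by Clic4 (0.313) and Fam129a (0.368) and for Psph by Nupr1 (0.339) and Fam129a (0.385). Phgdh was nearest to Psat1 (0.525), Gng5 (0.567) and Slc7a5 (0.598). Shmt2 was nearest to Cox6a2 (0.248), Ddr2 (0.258) and Rcc2 (0.265), and Aldh1l2 to Sdpr (0.226), Tgfb2 (0.271) and Aldh18a1 (0.279). Mthfd2 was nearest to Iars (0.258), Chac1 (0.294) and Hsph1 (0.306), and Mthfd1l to Gpr75 (0.264), Fancm (0.282) and Zfp758 (0.284). All 11 libraries share the genotype difference and the glial content described above, which enter these distances.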

How the data were processed

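Libraries were anti-haemagglutinin precipitates of spinal cord, 23 in 4 groups set by the genotype labels. Replicate numbers follow the deposited order and pair nothing. Because no label says that libraries are separate animals, p-values describe only how libraries spread, which may be technical. The members and gene lists were chosen with earlier results of these data known.

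The authors used Bowtie2 2.2.0 and RSEM 1.2.12, per the submitters' processing notes. The genome build is not given in the sources used here. The deposited files give expected counts per gene, not normalised for depth, beside deposited TPM, deposited FPKM and other values, the effective lengths. FPKM was not used here, and TPM entered no test. Of 38924 gene IDs, 37607 matched GENCODE M21 by identifier, which gave the exon overlaps. Expected counts of Phgdh, Shmt1 and Aldh1l2 were not whole in 10, 6 and 11 of the 23 libraries, a sign of reads shared with other genes, and in 0 libraries for the other 5 genes.

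Rounded expected counts were filtered (filterByExpr, at least 10 counts and a total of 15), TMM-scaled and tested by quasi-likelihood in edgeR 4.0.16 under R 4.3.3, with Benjamini-Hochberg adjustment over all genes and a threshold of 0.05. Each fit held only its own groups, and that of the difference of genotype effects all 23 libraries. CPM used TMM factors over all 23 libraries. Fits were also run on simulated counts with known changes. These had the same dispersion for every gene and no differences in glial content, so they do not show how the fits perform on these libraries. Over 55 replicate pairs, chi-square per degree of freedom was at least 9.15, and no library was counted as a repeat.

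Genes were named by rule. The 8 members, Gars, Chat and Rpl22 were always eligible, with up to 4 genes per list with the smallest p with Cre and the 3 most alike genes per member with at least 1 CPM. Slc7a5 and Iars come from that last part. Xist, Asns, Lhx3, Mthfd1, Mthfd2l and Aldh1l1 were chosen after their values were seen. Alternatives were other scaling (RLE, library totals), DESeq2 1.42.0, limma-voom (limma 3.58.1), filters, ribosomal RNA left out, glial or Xist covariates, the title number as a block, all 23 libraries, and libraries left out.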

Additional observations from a re-analysis of the deposited data

Results flagged for a closer look

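Of 32 sets of library values, 8 genes in 4 groups, 3 held a library far from the others by Dixon's 95% criterion. Chance flags about 1 in 20 such sets. Shmt2 in mutant no-Cre replicate 4 was at 40.5 CPM, where the next library of its group was at 7.08 CPM. Shmt2 in wild-type no-Cre replicate 2 was at 16.9 CPM, where the next was at 7.02 CPM. Aldh1l2 in wild-type Cre replicate 2 was at 2.89 CPM, where the next was at 1.21 CPM.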

How the results depend on the processing

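In the genotype effect with Cre, Psph (2.59 to 3.60) and Psat1 (1.67 to 2.59) were called under all 13 settings and all 11 leave-outs, and no member changed sign. Members called were 3, against 6 with DESeq2, 6 with limma-voom, 5 with no filter, 6 with the glia-rich Cre libraries left out (wild-type replicate 2, mutant replicates 4 and 6, chosen after seeing the data) and 2 to 5 with a library left out. Genes called were 41 (29 higher and 12 lower), against 17 with library totals (17 higher and 0 lower), 413 with DESeq2, 868 with limma-voom, 89 with no filter, 19 with the title number as a block, 11 with all 23 libraries, 1285 without the glia-rich libraries and 10 to 1054 with a library left out, the 1054 without wild-type Cre replicate 2. Library totals moved the median of all genes to 0.79 with Cre, beside 2.59 for Psat1, 3.60 for Psph and 2.27 for Shmt2 (adjusted p = 0.0534), to -0.35 without Cre, to 1.18 in the difference and to 1.13 in the Cre effect of mutants. The genotype effect without Cre called 0 genes (565 at an unadjusted p under 0.05), 0 with DESeq2 and limma-voom and 31 with no filter.

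The difference of genotype effects called 3 members with limma-voom, and 3 genes in all, against 1 with library totals, 42 with DESeq2, 169 with limma-voom, 9 with no filter, 1 with the glial covariate and 1 to 8 with a library left out. The Cre effect in mutants called 3 members, against 5 with library totals, 5 with limma-voom, 0 with the glial covariate and 3 to 5 with a library left out. Its genes called were 4247 (1800 higher and 2447 lower), against 6990 with limma-voom, 8175 with no filter, 1233 with the glial covariate and, with library totals, 3248 higher and 275 lower. The title block left only 3 libraries in that comparison, 2 of mutant Cre (both glia-rich) and 1 of mutant no-Cre. Its Phgdh value of 1.07, of the opposite sign, thus rests on a lone background library. The Cre effect in wild type called 4 members, against 0 with library totals, 2 at 5 CPM, 2 with the title block, 0 with the glial covariate and 1 to 5 with a library left out, and 5738 genes, against 906 with library totals and 8 with the glial covariate, where Psat1 turned to 0.024 and Aldh1l2 to 0.70. No count over all genes is given for that comparison at 5 CPM, with the title block or with a library left out, so those member counts lack a background. The causes were not tested. No paired analysis was possible because replicate numbers follow the deposited order and pair no libraries. The title number, whose meaning is not given, was the only block fitted. Depth limits Shmt1 most.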
